A study of Mus musculus with 20 samples.

Results

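Mouse embryonic stem cells were compared 4 days after they left 2i medium with the epiblast stem cell cultures that the same lines formed after 19 to 30 days. The comparison took in 12 of the 20 mRNA libraries of the series, chosen by the day in their labels: 4 from day 4 and 8 from days 19 to 30. A further 4 libraries of day 0, in 2i medium, gave the other end for genes that peaked or dipped at day 4, and 4 libraries of day 10 were set beside the results. Each stage held 2 lines, the female line PGK and the male line E14, in the 2 differentiation experiments that the labels number 2 and 3, so there were 4 cultures. Every culture gave 1 library at day 4 and 2 late ones, 1 of days 19 to 23 and 1 of days 27 to 30, and the 8 late libraries are therefore not 8 separate cultures. No genotype change or drug was labelled: all day 0 cells were grown in 2i, and all later cells on fibronectin in N2B27 with Activin A and Fgf2, passaged at day 4 and then every 2 days. Line and sex cannot be told apart here.

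As background, cells held in 2i resemble the naive epiblast of the blastocyst, and Activin A with Fgf2 drives them towards the primed state of the epiblast after implantation. Between these lies a short formative stage, when naive factors have been shut down, the de novo DNA methyltransferases are high, and primed cells with their tendency towards the streak and endoderm have not yet been established. Promoters of many germ line genes are methylated across this step and stay silent in somatic cells.

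The deposited raw counts summed to 2020254 in the shallowest day 4 library, E14 of experiment 3, and to between 13580815 and 21897124 in the other 3. Late libraries held 15643156 to 26936415 counts. Levels are given as CPM, the count scaled to a library total of 1000000, and a level says nothing about gene length, so levels are compared between samples and not between genes. Day 4 values are listed as PGK then E14 of experiment 2, then PGK and E14 of experiment 3, and late values as lowest, median and highest of 8. The titles of the experiment 2 libraries of days 0, 4 and 10 carry a library code that the late libraries do not, so that code moved with the stage within experiment 2. Among the late libraries, E14 of experiment 3 at day 19 was far from the other 7 for 14 of the genes named here, mostly as the highest, and leaving it out ended 6 of the 117 calls on genes named here (Phyhd1, Rab25, Tet2, Tpm2, Uchl1 and Wnt3, then at edgeR adjusted p of 0.0514 to 0.0780).

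Genes were tested with edgeR's quasi-likelihood test with line as a block, and called at an adjusted p under 0.05. Of 14552 genes tested, 4106 were called between day 4 and days 19 to 30, which is 28.2%. In all, 2044 were higher at day 4 (14%) and 2062 lower (14.2%), and the median log2 difference of all genes was 0.02. The lower calls were larger: 724 of them differed by more than 2 on the log2 scale, against 421 of the higher calls. Day 4 and late libraries did not overlap for 1250 of the 2062 lower genes (60.6%) and for 574 of the 2044 higher genes (28.1%), beside 13.2% of all genes tested. Day 10 took no part in this test, and its mean level was nearer to late than to day 4 for 73.9% of the lower genes and 58.3% of the higher ones. With a term for the library code the count fell to 2410 genes, 1035 higher and 1375 lower. With the 2 late libraries of each culture summed, so that every culture counted once, it was 2782 genes, 1161 higher and 1621 lower, and 11 of the 117 calls on genes named here were lost.

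The stage was checked first on 4 genes and on the landmarks of pluripotency. Ddx4 (ENSMUSG00000021758.14, GRCm38 chr13:112598333-112652475, minus strand), an RNA helicase of germ cells, stood at 58.8, 49.8, 41.9 and 54.4 CPM at day 4. Its late values were 0, 0.202 and 0.611 CPM, and its day 0 values ran from 3.27 to 14.5. The day 4 libraries lay above every other library of both ends, with a log2 difference from late of 7.89 (SE 0.44, edgeR adjusted p = 8.69e-08) and from day 0 of 2.82 (adjusted p = 0.00362).

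Mael (ENSMUSG00000040629.8, chr1:166201201-166238747, minus strand) encodes a component of the piRNA pathway, which silences transposons in germ cells. It stood at 23.5, 18.9, 9.54 and 8.91 CPM at day 4 and at 0, 0 and 0.256 CPM late, where only 5 counts were found in all 8 libraries. The groups did not overlap, and the difference from late was called (log2 8.81, SE 0.75, edgeR adjusted p = 2.66e-06). No late library reached 10 counts, so the filter on low counts could keep Mael only through day 4. Its direction against late is therefore no result. Against day 0 (0 to 7.61 CPM) the day 4 libraries were also the higher ones, but that difference was not called (log2 2.21, edgeR adjusted p = 0.181).

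Utf1 (ENSMUSG00000047751.9, chr7:139943789-139945112, plus strand), a chromatin-bound factor of pluripotent cells, stood at 328, 367, 128 and 238 CPM at day 4. Late values were 35.7, 84.2 and 115 CPM and day 0 values 15 to 36 CPM. No library of either end reached the lowest day 4 value, and Utf1 was higher at day 4 than late (log2 1.74, SE 0.29, edgeR adjusted p = 0.000712) and than at day 0 (log2 3.25, adjusted p = 0.000536).

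Krt18 (chr15:102028180-102032027, plus strand), a keratin of simple epithelia, was intermediate. Its day 4 values were 57.9, 55, 80.9 and 109 CPM, its late values 346, 488 and 836 CPM, and its day 0 values 1.18 to 7.98 CPM. The 3 stages did not overlap; day 4 was 2.76 below late on the log2 scale (SE 0.25, edgeR adjusted p = 4.19e-06) and 4.19 above day 0 (adjusted p = 0.000994).

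Pou5f1, the central factor of pluripotency, stood at 1270, 1348, 1016 and 791 CPM at day 4 and at 293, 480 and 622 CPM late. All day 4 libraries lay above all late ones (log2 1.27, SE 0.18, edgeR adjusted p = 0.000203), and they overlapped with day 0. Neither Nanog (log2 0.78, adjusted p = 0.0601) nor Sox2 (log2 0.32, adjusted p = 0.486) was called against late, and both overlapped; both had fallen since day 0, Nanog with a log2 difference of -2.89 (edgeR adjusted p = 4.39e-05) and Sox2 with one of -3.14 (adjusted p = 0.00249). Brachyury (T), a streak factor, ranged from 3.53 CPM in E14 of experiment 2 to 474 CPM in PGK of experiment 3 at day 4, a library that also held the highest Eomes (196 CPM) and Lhx1 (37 CPM) of the 4. T was not called (log2 -1.05, edgeR adjusted p = 0.55), and without that library it was (log2 -3.67, adjusted p = 0.00335). Nanog was called higher in 6 of the alternatives, among them DESeq2 (adjusted p = 0.0275) and the fits without E14 of experiment 3 at day 19 (edgeR adjusted p = 0.0449) or at its later stage (adjusted p = 0.00799). Sox2 turned to a log2 difference of -0.31 without PGK of experiment 2 at day 4.

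**Figure D1:**
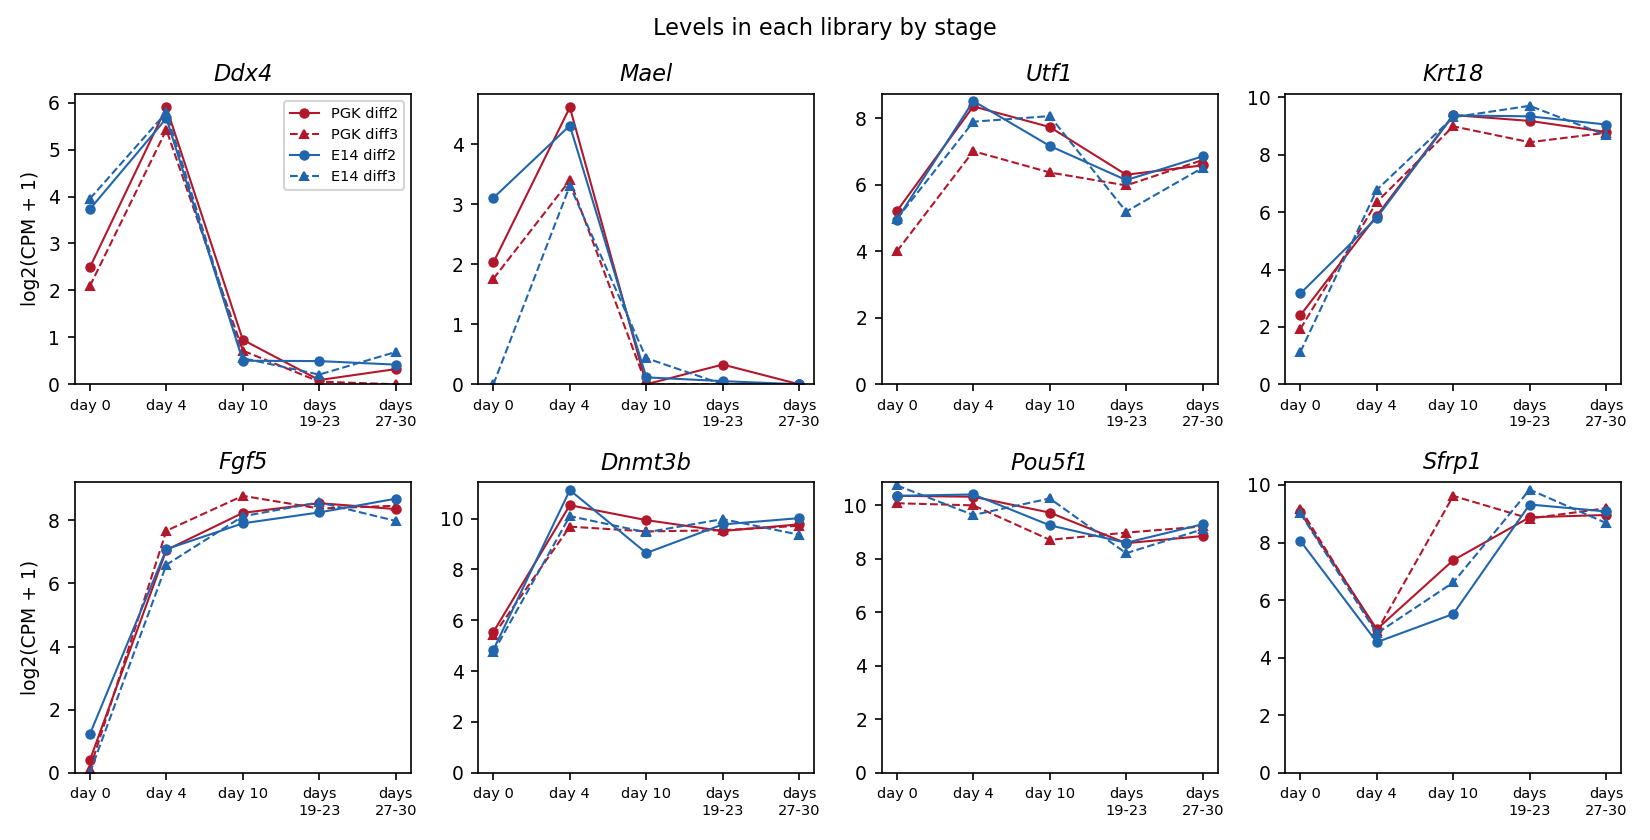
Level of 8 genes in each culture by stage, as log2(CPM + 1); red is PGK, blue is E14, circles with solid lines are experiment 2 and triangles with dashed lines experiment 3, and each point is 1 library. Ddx4 and Mael were highest at day 4 in all 4 cultures and Utf1 in 3 (E14 of experiment 3 had 238 CPM at day 4 and 268 CPM at day 10), Krt18 and Fgf5 were still below their late levels, and Sfrp1 was lowest at day 4 (22.2 to 30.7 CPM).

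The germ line list held genes of meiosis, the piRNA pathway and germ cell RNA metabolism, chosen as germ line genes silenced by DNA methylation. Its shares therefore describe such genes and not germ line genes in general. Of 33 genes, 29 passed the filter on low counts: 24 were higher at day 4 than late, 1 was lower and 4 were not called. For 12 of the 29 no late library reached 10 counts, so the filter could keep them only through day 4; all 12 were called higher, and their direction is no result. Of the other 17, 12 were higher and 1 lower, with a median log2 difference of 2.52 beside 0.04 for all 13748 genes with 10 counts in a library of each stage, of which 14% were higher and 13.1% lower. The summed level of the list was 470.4 to 806.7 CPM at day 4 and 131.7 to 218.8 CPM late, with no overlap. Leaving out the coded libraries, 18 of 26 tested members were called higher. That count was not split by whether a late library reached 10 counts, so it carries the same limit.

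The genes reached this difference by different courses, and the upstream sequences of 5 are shown first because the E-box, which the list did not use, lies before 14 of the genes. The 250 bases before the RefSeq start site (GRCm38.p6), read 5′ to 3′ on the gene's strand, are given for Ddx4 (chr13:112652311-112652560, minus), Mael (chr1:166238745-166238994, minus) and Tdrd1 (chr19:56825959-56826208, plus), whose mean level was higher at day 4 than at day 0. Hormad1 (chr3:95559427-95559676, plus) and Dazl (chr17:50293621-50293870, minus) are shown for those whose mean level was lower at day 4 than at day 0. Capitals mark CACGTG, the palindromic E-box, and GGCGGGAA, a motif of the E2F type, both searched on both strands.
Ddx4: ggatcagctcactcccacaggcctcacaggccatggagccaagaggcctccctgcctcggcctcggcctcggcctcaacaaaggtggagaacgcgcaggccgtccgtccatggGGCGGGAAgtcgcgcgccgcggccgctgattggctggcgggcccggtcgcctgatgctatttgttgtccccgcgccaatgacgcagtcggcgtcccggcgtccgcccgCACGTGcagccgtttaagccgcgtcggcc
Mael: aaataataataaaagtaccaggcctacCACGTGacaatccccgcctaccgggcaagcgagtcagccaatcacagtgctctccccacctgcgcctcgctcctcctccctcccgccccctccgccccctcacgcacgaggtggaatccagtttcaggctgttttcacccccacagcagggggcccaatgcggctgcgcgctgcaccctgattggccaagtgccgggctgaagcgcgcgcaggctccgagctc
Tdrd1: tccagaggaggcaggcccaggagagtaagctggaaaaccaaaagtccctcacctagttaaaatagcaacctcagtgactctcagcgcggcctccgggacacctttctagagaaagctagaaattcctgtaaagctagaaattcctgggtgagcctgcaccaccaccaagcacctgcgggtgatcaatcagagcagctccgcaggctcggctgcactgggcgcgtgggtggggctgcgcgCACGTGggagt
Hormad1: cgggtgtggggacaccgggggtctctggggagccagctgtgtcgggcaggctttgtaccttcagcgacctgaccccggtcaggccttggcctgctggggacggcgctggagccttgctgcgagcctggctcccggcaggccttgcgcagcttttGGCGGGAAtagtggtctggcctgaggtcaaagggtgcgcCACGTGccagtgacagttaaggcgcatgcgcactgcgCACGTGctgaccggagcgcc
Dazl: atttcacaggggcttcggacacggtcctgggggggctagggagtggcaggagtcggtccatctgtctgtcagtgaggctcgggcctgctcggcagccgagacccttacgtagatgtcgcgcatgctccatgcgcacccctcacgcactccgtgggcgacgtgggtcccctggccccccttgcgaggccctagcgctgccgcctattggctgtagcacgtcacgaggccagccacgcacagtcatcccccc

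The E-box was present before 14 of the 25 tested germ line genes that had a window in the RefSeq table (56.0%), before 6.86% of all 27024 genes of the table and before 9.83% of the 11441 tested genes that had a window. The E2F type motif was present before 4 of the 25 (16.0%), before 2.13% of all genes of the table and before 4.03% of those tested. A window was found for 78.6% of all tested genes. Dazl held neither. These matches describe the letters of the windows only.

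Of the 24 germ line genes higher at day 4 than late, 8 had a higher mean at day 4 than at day 0 and 16 a lower one. Against day 0, 3 of them were called higher (Ddx4, Tdrd1 and Sycp3) and 8 lower. Tdrd1, a scaffold of the piRNA machinery, stood at 19.4, 14.7, 15 and 6.43 CPM at day 4, with 0 to 1.04 CPM at day 0 and 0, 0.243 and 1.02 CPM late. Its day 4 libraries lay above all others (log2 5.50 against late, SE 0.64, edgeR adjusted p = 3.71e-05). Sycp3, a protein of the synaptonemal complex, spread more widely, with 39.6, 108, 24.4 and 289 CPM at day 4 against 2.64, 17.3 and 41.8 late, and the groups overlapped although it was called (log2 2.52, adjusted p = 0.000353).

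Dazl, an RNA-binding protein of germ cells, showed the other course. It stood at 12.1 to 126 CPM at day 0, at 8, 7.44, 3.47 and 8.41 CPM at day 4 and at 0, 0.0807 and 0.433 CPM late, so the 3 stages formed a descending series with no overlap. Hormad1, which sits on meiotic chromosome axes, had 30.5, 2.14, 5.39 and 1.98 CPM at day 4 and no count in any late library, so it was at least 592-fold higher at day 4, by a floor of 3 counts over the late group. Syce1, of the synaptonemal complex, was likewise at 0 late (at least 572-fold), and so was Rpl10l (at least 1252-fold), a testis ribosomal protein gene whose reads could be shared with near-identical copies. PGK of experiment 2 was the highest day 4 library for all 3, and without it the bounds were 188-fold for Hormad1, 329-fold for Syce1 and 628-fold for Rpl10l. Slc25a31, a germ cell ADP/ATP carrier, stood at 12.1, 3.09, 4.11 and 2.97 CPM at day 4 with 1 count over all late libraries. For Dazl, Hormad1, Syce1, Rpl10l and Slc25a31 no late library reached 10 counts, so their direction against late is no result.

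At day 10, 19 of the 24 genes had a mean under 1 CPM, the same number as late. For the 12 that the filter kept only through day 4, the low late mean follows from having under 10 counts in every late library. Day 10 took no part in that filter. The exception in direction was Tdrkh, a partner of the piRNA pathway that was lower at day 4 (13.5 to 24.3 CPM) than late (34.1 to 72.1 CPM; log2 -1.37, edgeR adjusted p = 9.21e-05).

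**Figure D2:**
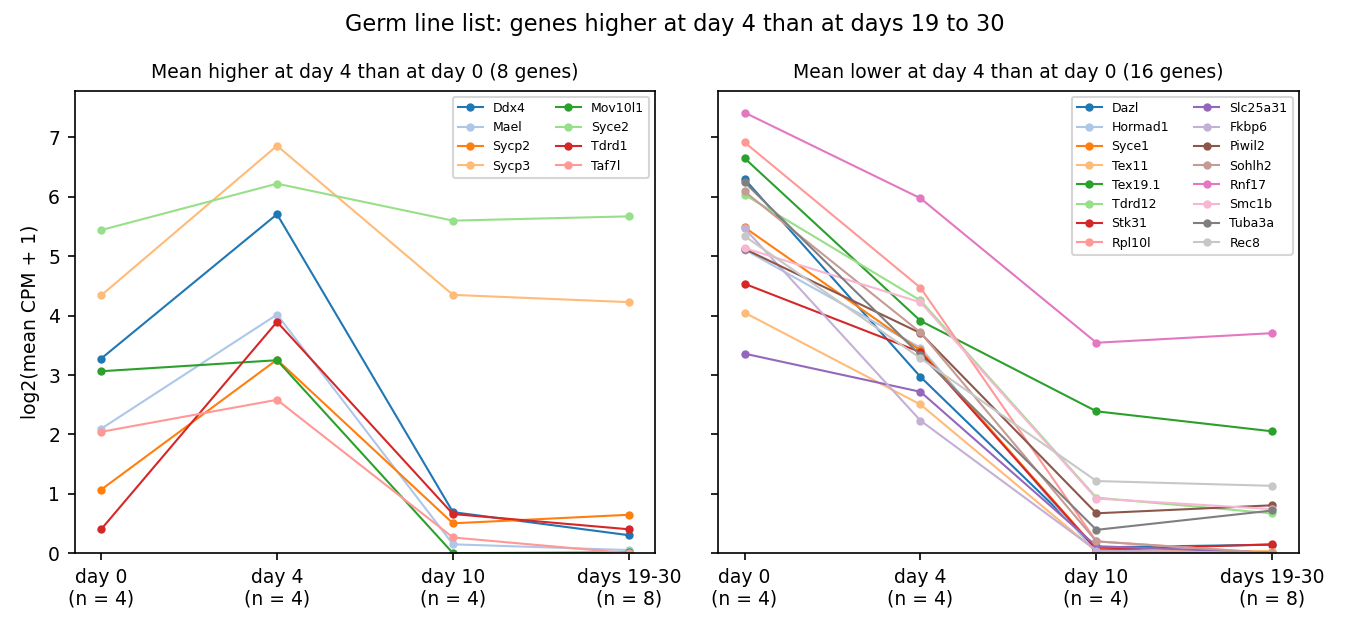
Mean level by stage, as log2(mean CPM + 1), of the 24 germ line genes that were higher at day 4 than at days 19 to 30; the left panel holds the 8 whose mean was higher at day 4 than at day 0, the right panel the 16 whose mean was lower. Most lines reach the floor at day 10, and Syce2, Sycp3, Rnf17 and Tex19.1 stay above it.

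Of 27 tested genes of the formative epiblast, 15 were higher at day 4 than late and 2 were lower, with a median log2 difference of 0.77, and 10 of the 15 were also higher than at day 0. Among all genes tested 14% were higher and 14.2% lower than late, and 1.61% of those tested against both ends were higher than both. Pim2, a serine/threonine kinase, stood at 1011, 807, 952 and 329 CPM at day 4, at 9.32 to 37.4 CPM at day 0 and at 294, 346 and 387 CPM late. It overlapped with late only through E14 of experiment 3 (log2 1.18, edgeR adjusted p = 0.000263). Pou3f1, a POU factor of the epiblast, had 137, 128, 70.1 and 56.9 CPM at day 4 against 24.4, 45.4 and 70.8 CPM late (log2 1.19, edgeR adjusted p = 0.00237). The day 4 libraries of experiment 3 lay within the late range. The call of Pou3f1 was lost in 3 alternatives, among them the library code term (log2 0.55, edgeR adjusted p = 0.146). Etv5, an ETS factor downstream of FGF, was at 233 to 355 CPM at day 4 and at 60.4 to 158 CPM late without overlap (log2 1.37, adjusted p = 0.000149), but overlapped with day 0.

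The 2 formative genes that were lower were Fgf5 and Otx2, both in wide use as markers of the epiblast after implantation. Fgf5, a secreted growth factor, had 133, 135, 203 and 95.5 CPM at day 4, at most 1.34 CPM at day 0, and 252, 342 and 411 CPM late. All day 4 values lay between the ends (log2 -1.24 against late, SE 0.18, edgeR adjusted p = 0.000171). The homeobox gene Otx2 had 110, 132, 105 and 148 CPM at day 4 and 232, 254 and 536 CPM late, again without overlap (log2 -1.23, adjusted p = 0.000192). The formative count changed with the libraries used: with a term for the library code, 4 of 27 were called higher and 3 lower, and the same numbers came from the fit without the coded libraries. With days 27 to 30 alone as the late group, 4 were higher and 2 lower. Over all genes, 1035 were higher and 1375 lower with the term, and 1022 and 1378 without the coded libraries. With days 27 to 30 alone these numbers were 527 and 895. The small formative counts of these fits are not read as results about the list.

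Among 24 genes that write, read or erase DNA methylation, 9 were higher at day 4 than late (37.5%) and 3 lower (12.5%), with a median log2 difference of 0.25. Of all genes tested, 14% were higher and 14.2% lower, so the lower count is no result about the list. Dnmt3b, a de novo methyltransferase, stood at 1471, 2222, 820 and 1092 CPM at day 4, at 25.8 to 45.6 CPM at day 0 and at 658, 855 and 1034 CPM late. The rise from day 0 separated the groups (log2 5.33, edgeR adjusted p = 4.09e-05), whereas day 4 and late overlapped (log2 0.75, adjusted p = 0.00847), and that second call was lost in 6 alternatives, up to an adjusted p of 0.397, among them the fit without E14 of experiment 2 at day 4 (log2 0.49, adjusted p = 0.0602). Dnmt3a had 356, 422, 183 and 306 CPM at day 4 and 159 to 225 CPM late, with overlap (log2 0.73, edgeR adjusted p = 0.00422). Its call was lost in 3 alternatives, among them the library code term (log2 0.35, edgeR adjusted p = 0.155).

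Dnmt3l, their catalytically inactive partner, was at 149 CPM in PGK of experiment 2 and at 16, 12.1 and 0 CPM in the other day 4 libraries. Late values were 0.511, 0.873 and 7.5 CPM, and the groups overlapped (log2 4.31, edgeR adjusted p = 0.0028). The call was lost in 4 alternatives, with a log2 difference of 1.60 with the library code term (adjusted p = 0.253) and 1.33 without the coded libraries (edgeR adjusted p = 0.389). Hells, a chromatin remodeller needed for DNA methylation, was at 520 to 682 CPM at day 4 and 217 to 380 CPM late, and Tet1, which oxidises methylcytosine, at 259 to 436 and 103 to 197 CPM, both without overlap. Tet2 was lower at day 4 than at both ends, with means of 329, 12.6 and 25 CPM at day 0, day 4 and late. Its difference from late was at the edge of the threshold (log2 -0.91, edgeR adjusted p = 0.0457), and leaving out 1 of 7 libraries ended the call, with an adjusted p of 0.0588 without PGK of experiment 3 at its earlier late stage to 0.162 without E14 of experiment 2 at day 4. With the library code term, 3 of the 24 were higher and 2 lower.

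Of 27 naive genes tested, 13 were higher at day 4 than late, 2 were lower and 12 were not called, with a median log2 difference of 1.42. For 2 of the 13 no late library reached 10 counts, so the filter could keep them only through day 4, and their direction is no result. Of the other 25, 11 were higher (44%) and 2 lower (8%), with a median of 1.08. Among all genes with 10 counts in a library of each stage, 14% were higher and 13.1% lower. The summed level of the list was 9066 to 12340 CPM at day 0, 400.4 to 1704 CPM at day 4 and 340.5 to 468.1 CPM late, so day 4 lay below day 0 and overlapped with late. Dppa5a, an RNA-binding protein of naive cells, had 434, 92.1, 95.4 and 19.8 CPM at day 4, and 0, 0.353 and 1.39 CPM late. Esrrb, an orphan nuclear receptor of the naive network, had 82.6, 5.23, 26.6 and 0.99 CPM, and 2.2, 2.93 and 7.4 CPM late, so the E14 libraries lay within or below the late range. Its call (log2 2.58, edgeR adjusted p = 0.0204) was lost in 9 alternatives, among them the fits without PGK of experiment 2 at day 4 (log2 1.52, adjusted p = 0.0902) and without PGK of either experiment at days 19 to 23 (adjusted p = 0.0524 and 0.0569). Zfp42 (Rex1) had 39.7, 7.88, 21.4 and 5.94 CPM at day 4 and 0.256, 1.29 and 4.22 CPM late, without overlap.

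PGK of experiment 2 was the highest day 4 library for Dppa5a, Esrrb and Zfp42, and also for Ooep (37.7 CPM against 0.495 to 6.26), an oocyte and embryo protein, and Tdh (114 CPM against 1.48 to 51.9), the threonine dehydrogenase of mouse embryonic stem cells. In bulk RNA, fewer cells with a transcript and less transcript in each cell cannot be told apart. Without the coded libraries, 9 of 27 naive genes were called higher and 1 lower.

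Of 16 core pluripotency genes, 9 were higher at day 4 than late (56.2%) and 2 lower (12.5%), beside 14% and 14.2% of all genes tested. The lower share is near that of all genes, so it is no result about the list. Dppa4, a DNA-binding protein of pluripotent cells, had 89.5, 42.2, 55.5 and 61.4 CPM at day 4 and 0.855, 1.88 and 7.54 CPM late (log2 4.77, SE 0.38, edgeR adjusted p = 1.83e-06). Tdgf1 (Cripto), a co-receptor of Nodal, had 270, 279, 135 and 236 CPM at day 4 and 21.7, 48 and 65 CPM late. Neither overlapped with late. Sall4 was lower at day 4 (78.2 to 164 CPM) than late (180 to 357 CPM), and so was Hmga2, with means of 63.3 and 255 CPM; both encode DNA-binding proteins. Without the coded libraries 6 of 16 were higher and 2 lower.

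Definitive endoderm genes marked the other side of the comparison. None of 17 tested was higher at day 4, 15 were lower and 2 were not called, with a median log2 difference of -4.53. Of all genes tested, 14% were higher and 14.2% lower. For 2 of the lower endoderm genes no day 4 library reached 10 counts. Of the other 15, 13 were lower (86.7%, median -3.99), beside 13.1% of all genes with 10 counts in a library of each stage. The summed level was 206.2 to 452.7 CPM at day 4 and 1485 to 3016 CPM late. Sox17, an HMG box factor of endoderm, stood at 0.771, 0.147, 3.47 and 0.99 CPM at day 4 and at 57.4, 91 and 199.8 CPM late (log2 -5.95, SE 0.66, edgeR adjusted p = 5.09e-05). Foxa1, a forkhead factor of endoderm, had 1.12, 0.221, 2.28 and 0.99 CPM at day 4 and 18.2, 37.9 and 86.3 CPM late. Cer1, a secreted inhibitor of Nodal, BMP and Wnt, had 0.0736 to 16.8 CPM and 218 to 592 CPM. In all 3 the groups were separate, and PGK of experiment 3 was the highest day 4 library. Without it the log2 difference of Cer1 moved from -5.88 to -9.00.

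Shh, a signalling ligand, was at 0 counts in 2 day 4 libraries and at 5.38 to 53 CPM late. No day 4 library reached 10 counts for Shh, so the filter could keep it only through the late libraries, and its direction is no result. Gata4, a zinc finger factor of endoderm, had 0.495 to 6.3 CPM at day 4 and 41.1 to 116 CPM late. Eomes overlapped and was not called (log2 -1.48, edgeR adjusted p = 0.105), but was called without PGK of experiment 3 at day 4 (log2 -2.51, adjusted p = 0.00128). The lower count held within 12 to 16 of 17 in the fits run for the lists. Whether endoderm-like cells in the late cultures account for other differences was not tested; the summed endoderm level moved with the stage, as given above.

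**Figure D3:**
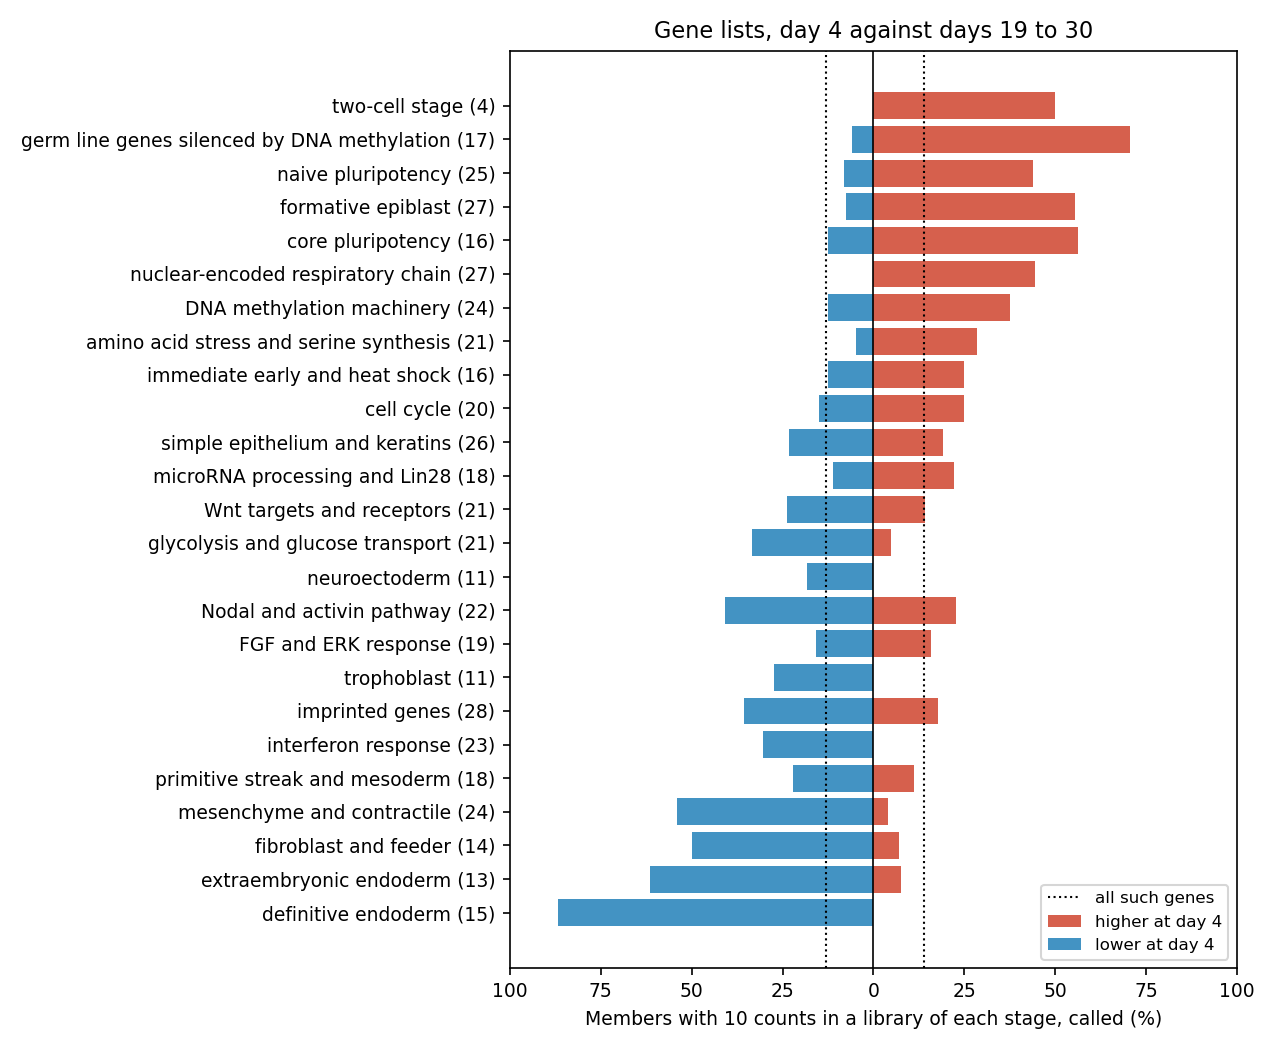
Percent of the members of 25 gene lists that were called higher (red, right) or lower (blue, left) at day 4 than at days 19 to 30, over members with at least 10 counts in a library of each stage (their number in brackets), ordered by their median log2 difference. Dotted lines mark the shares over all 13748 such genes, 14% higher and 13.1% lower; 12 of 17 germ line genes were called higher and 13 of 15 definitive endoderm genes lower, while only 4 two-cell stage genes remain.

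Lists for other tissues were smaller in size or mixed, and their counts stand beside 14% higher and 14.2% lower of all genes tested. Of 15 extraembryonic endoderm genes, 9 were lower and 1 higher; Gata4, Gata6 and Sox17 stand in both endoderm lists. Neuroectoderm had 5 of 17 lower and none higher (2 of 11 lower where both stages had a library with 10 counts), trophoblast 3 of 12 lower and none higher, and the primitive streak list 4 of 19 lower and 2 higher. Sox21, a neural HMG box factor, was lower at day 4 (0.495 to 2.33 CPM) than at both ends, with 6.54 to 20.6 CPM late and 9.82 to 118 CPM at day 0. Gata3, of trophoblast and surface ectoderm, had 2.88, 0, 0.594 and 0.495 CPM at day 4 and 3.84, 12.5 and 36.6 CPM late.

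Of 26 genes of simple epithelium, 6 were lower (23.1%) and 5 higher (19.2%), beside 14.2% and 14% of all genes tested. The lower ones included 4 keratins and the desmosome genes Dsp and Dsc2. Krt8, the partner of Krt18, had 48.6, 18.9, 107 and 52.5 CPM at day 4 and 270, 389 and 548 CPM late (log2 -2.86, SE 0.34, edgeR adjusted p = 5.7e-05). Krt19 had 13.6, 2.95, 53.6 and 38.6 CPM and 62, 155 and 302 CPM. The adhesion genes Cdh1 (log2 0.23, adjusted p = 0.327) and Epcam (log2 0.01, adjusted p = 0.974) were not called, so the list did not move as a block. The 5 higher members (Grhl2, Cldn7, Cldn4, Cldn3 and Rab25) all overlapped with late, and 0 of 26 were called higher without the coded libraries. Leaving out 1 library ended the call of Cldn7 (E14 of experiment 3 at day 4, log2 0.40, edgeR adjusted p = 0.123) and of Cldn4 (the same library, adjusted p = 0.123, or PGK of experiment 2 at day 4, adjusted p = 0.0893). For Cldn3 and Rab25 this held for 7 and 8 libraries, up to an edgeR adjusted p of 0.240 and 0.128 without PGK of experiment 2 at day 4, whose removal also ended the call of Dsc2 (log2 -1.55, adjusted p = 0.0568).

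Mesenchymal and contractile genes had 13 of 24 lower (54.2%) and 1 higher (4.17%), beside 14.2% and 14% of all genes tested. Their median log2 difference was -1.27. Acta2, smooth muscle actin, stood at 4.7, 9.2, 6.76 and 12.4 CPM at day 4 and at 30.1, 82.2 and 158 CPM late, with at most 0.149 CPM at day 0. Cdh2 (N-cadherin) had 10, 10.8, 44.7 and 17.8 CPM and 124, 136 and 221 CPM late. Both separated the groups (log2 -3.53 for Acta2, edgeR adjusted p = 4.54e-05; log2 -2.85 for Cdh2, adjusted p = 8.53e-05). Vim, vimentin of intermediate filaments, was also lower (log2 -1.86, adjusted p = 5.7e-05), although PGK of experiment 3 at 321 CPM reached into the late range of 290 to 880 CPM. Tpm2, a tropomyosin, was the member that was higher (log2 0.61, adjusted p = 0.0334), and leaving out 1 of 7 libraries ended that call, with an edgeR adjusted p of 0.0535 without E14 of experiment 3 at day 4 to 0.129 without E14 of experiment 2 at day 4.

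The fibroblast list had 11 of 20 lower and 1 higher, with a median log2 difference of -2.24. Of all genes tested, 14.2% were lower and 14% higher. For 6 of the 20 no day 4 library reached 10 counts. Of the other 14, 7 were lower (50%), beside 13.1% of all genes with 10 counts in a library of each stage. Col1a2, a chain of collagen I, had 0.561, 1.25, 3.01 and 4.95 CPM at day 4 and 25.1, 63.4 and 132 CPM late, and Col5a1 had 10.9 to 31.1 CPM and 55.1 to 182 CPM. The fibroblast genes Dcn and Lum were low in both groups, at most 1.91 CPM for Dcn and at 0 for Lum at day 4, and at most 2.22 and 2.16 CPM late. The summed fibroblast level was 239.1 to 477.7 CPM at day 4 and 800.2 to 1157 CPM late. Its part in the other results was not tested.

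In the Nodal and activin pathway, 5 of 22 were higher at day 4 (22.7%) and 9 lower (40.9%), beside 14% and 14.2% of all genes tested. Among ligands and their co-receptors, Gdf3 had 106, 32.8, 27.3 and 4.95 CPM at day 4 and 0.66, 1.55 and 2.84 CPM late (log2 4.63, SE 0.60, edgeR adjusted p = 0.000116). Cfc1 (Cryptic), a relative of Tdgf1, ran the other way, with 0.421, 0, 0.959 and 1.48 CPM at day 4 and 23.1, 41 and 120 CPM late (log2 -6.10, adjusted p = 4.45e-05). Both were without overlap. Lefty1, a feedback inhibitor and target of Nodal, had 178, 192, 67.1 and 130 CPM at day 4, 2.6 to 9.77 CPM at day 0 and 409, 553 and 732 CPM late. Nodal itself was called higher (log2 0.96, adjusted p = 0.00484) with overlap, and lost that call with the library code term.

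Of 22 Wnt receptors and targets, 4 were higher and 5 lower, beside 14% higher and 14.2% lower of all genes tested. For 1 of the 4 no late library reached 10 counts. Sfrp1 (chr8:23411502-23449632, plus strand), a secreted Wnt antagonist, dipped most evenly: 30.7, 22.2, 29 and 27.7 CPM at day 4, 265 to 577 CPM at day 0, and 409, 518 and 915 CPM late. The difference was -4.30 on the log2 scale against late (SE 0.24, edgeR adjusted p = 8.69e-08) and -4.09 against day 0 (adjusted p = 3.48e-05). Fzd5, a Wnt receptor, dipped too, from 94.6 to 272 CPM at day 0 to 25.7, 26.6, 44 and 57.4 CPM at day 4, with 328, 533 and 1081 CPM late. Dkk1, another antagonist, was at most 4.02 CPM at day 4 and at least 52.1 CPM late (log2 -5.78, and -8.93 without PGK of experiment 3 at day 4). All 3 were free of overlap. Axin2, a common target of the pathway, was not called, except without E14 of experiment 3 at day 4 (log2 1.33, edgeR adjusted p = 0.00938).

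In the list of FGF and ERK response genes, 3 of 19 were higher and 3 lower (15.8% each). This is near the 14% higher and 14.2% lower of all genes tested, so the counts are no result about the list. Egr1, an immediate early zinc finger factor, had 43.1, 110, 51.1 and 75.7 CPM at day 4, at most 0.522 CPM at day 0 and 29.8, 32.5 and 58.9 CPM late. Its rise from day 0 was separated (log2 7.52, edgeR adjusted p = 4.61e-05), while day 4 and late overlapped (log2 0.82, adjusted p = 0.0129) and that call was lost in 4 alternatives, among them the fit without E14 of experiment 2 at day 4 (adjusted p = 0.0784). Fgf8, a ligand of the streak, was lower at day 4 (3.46 to 26.6 CPM) than late (17.4 to 70.8 CPM), with overlap and a call lost in 3 alternatives.

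Of 28 imprinted genes, 5 were higher at day 4 (17.9%) and 10 lower (35.7%), beside 14% and 14.2% of all genes tested, with a median log2 difference of -0.72. The higher ones included Meg3, Rian and Mirg, the noncoding RNAs transcribed from the maternal copy of the Dlk1-Dio3 region: Rian had 1050, 549, 538 and 278 CPM at day 4 and 182, 245 and 358 CPM late (log2 1.31, SE 0.19, edgeR adjusted p = 0.000241), with E14 of experiment 3 inside the late range. The calls of Meg3 and Mirg were lost in 4 and 3 alternatives. Mest, expressed from the paternal copy, was lower, with 373, 111, 366 and 253 CPM against 394, 931 and 1415 CPM. Igf2, a fetal growth factor, had 3.44, 4.27, 7.49 and 33.7 CPM at day 4 and 43.8, 177 and 2465 CPM late (log2 -4.87, adjusted p = 0.00212). The groups did not overlap, and the late values spread widely. With the library code term 2 of 28 were higher and 7 lower.

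Of 25 interferon response genes, none was higher and 8 lower, beside 14% and 14.2% of all genes tested. Usp18, which limits interferon signalling, was found at no more than 0.0736 CPM at day 4 and at 2.41, 11.5 and 30.1 CPM late, and Isg15, a ubiquitin-like modifier, at no more than 0.731 CPM and at 2.12, 8.24 and 32.7 CPM. B2m, the light chain of class I molecules, had 25.2 to 31.7 CPM at day 4 and 41 to 85 CPM late. These 3 did not overlap, and with days 27 to 30 alone 4 members were called lower. For Usp18 no day 4 library reached 10 counts, so the filter could keep it only through the late libraries.

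Of 22 genes of the two-cell stage, 13 passed the filter, and 9 of these had no late library with 10 counts and could pass only through day 4, so their count is no result. Of the other 4, 2 were higher and none lower, and the summed level of the list overlapped (239.4 to 415.8 CPM at day 4, 272.2 to 398.4 CPM late). Zscan4c had 4.42, 2.06, 1.64 and 2.47 CPM at day 4 and 1 count in all late libraries, and Zscan4d had 8.63, 4.93, 2.6 and 0 CPM with no late count, at least 239-fold higher at day 4 by the same floor, or 149-fold without PGK of experiment 2. The Zscan4 and Usp17l genes are families of near-identical copies, so the counts of single members are uncertain. Without the coded libraries only 5 members passed the filter on low counts, of which 1 was called.

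Of 27 nuclear-encoded respiratory chain genes, 12 were higher and none lower, with a median log2 difference of 0.29. Among all genes tested 14% were higher and 14.2% lower. Ndufa1, of complex I, had 86.7, 41.5, 39 and 29.7 CPM at day 4 and 13.8, 20.1 and 21.9 CPM late (log2 1.35, SE 0.22, edgeR adjusted p = 0.000439). The count was 5 with the library code term and 2 with either late stage alone. Of 21 glycolysis genes, 7 were lower and 1 higher. Slc2a3, a glucose transporter, had 343, 362 and 120 CPM in 3 day 4 libraries and 1523 CPM in E14 of experiment 3, the shallowest, against 1047, 1473 and 4388 CPM late, and its call was lost in 3 alternatives. Hk1, hexokinase, was lower at day 4 (17.9 to 35.1 CPM) than at both ends (134 to 268 CPM at day 0, 47.9 to 69 CPM late).

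The small counts of the next 4 lists stand beside 14% higher and 14.2% lower of all genes tested, and are not read as results about the lists. Cell cycle genes had 5 of 20 higher (25%) and 3 lower (15%). Ccne1 (cyclin E1) had 217, 226, 198 and 219 CPM at day 4, 91.5 to 131 CPM at day 0 and 83.9, 136 and 168 CPM late. Ccnd1 (cyclin D1) was at 279 to 333 CPM at day 4, above the 38.2 to 79.9 CPM of day 0 and the 44.9 to 221 CPM of late. Ccnd3 (cyclin D3) was lowest at day 4, at 65.5 to 75 CPM, with 267 to 370 CPM at day 0 and 84.5 to 125 CPM late. None of the 3 overlapped with either end. Of the 18 microRNA processing genes 4 were higher and 2 lower, with Xpo5, the export receptor of microRNA precursors, at 235 to 353 CPM at day 4 and 125 to 218 CPM late (log2 0.68, edgeR adjusted p = 0.00247). Of 21 genes of amino acid stress and serine synthesis 6 were higher and 1 lower, and of 16 immediate early and heat shock genes 4 were higher and 2 lower; with days 27 to 30 alone as the late group, none of the 16 was called.

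The largest differences outside these lists were chosen by size among genes with at least 8 CPM in the higher group and 1 direction in all 4 cultures. Psma8, a testis proteasome subunit, had 33, 3.53, 8.72 and 2.97 CPM at day 4 and 2 counts in all late libraries, with 0.888 to 35.8 CPM at day 0. D1Pas1, a testis helicase related to Ddx3x, had 28.1, 7, 15.8 and 3.96 CPM, at most 0.0943 CPM late, and 11.6 to 84.2 CPM at day 0. D1Pas1 resembles its X-linked relative in sequence, so its counts are uncertain. Hesx1, a homeobox repressor of the anterior epiblast, had 1 count over the 4 day 4 libraries, 6.32, 20.9 and 112 CPM late, and 0 to 8.7 CPM at day 0. Pga5, a pepsinogen, had 0.14, 0, 1.23 and 3.46 CPM at day 4 and 150, 481 and 828 CPM late (log2 -9.06, SE 0.77, edgeR adjusted p = 1.22e-05). Tph1, which makes serotonin, had at most 0.0701 CPM at day 4 and 8.96, 17.5 and 61.1 CPM late, and Gpr37, an orphan receptor, at most 0.14 CPM and 5.47, 10.8 and 23 CPM. For Psma8 and D1Pas1 no late library reached 10 counts, so the filter could keep them only through day 4. For Hesx1, Tph1 and Gpr37 no day 4 library did, so they could pass only through the late libraries. The direction of these genes against late is therefore no result.

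Genes peaking at day 4 were those called higher than both day 0 and late, and dipping genes those called lower than both. Both comparisons use the same 4 day 4 libraries, so a chance deviation of these would enter both, and the counts are a description. Against day 0, 2036 of 13560 genes were called (15.0%), 1024 higher (7.55%) and 1012 lower (7.46%). Of 13198 genes tested in both, 213 peaked (1.61%) and 183 dipped (1.39%). Without E14 of experiment 2 at day 4 these counts were 83 and 88, and without PGK of that experiment 126 and 144. Without PGK of experiment 3 at day 4 they were 146 and 113, and leaving out a PGK library of day 0 gave 138 and 133 (experiment 2) or 125 and 121 (experiment 3). At the edge of the rule, Wnt3 (36.2 CPM at day 4, 20.4 late; adjusted p = 0.04997 by edgeR) and Uchl1 were just inside for peaks and Trip6 (71.9 and 52.6 CPM) just outside; Nek6 and Phyhd1 were just inside and Fryl just outside for dips. Leaving out 1 library ended the call against late for Wnt3 with 8 libraries (adjusted p up to 0.277 without PGK of experiment 3 at day 4), Uchl1 with 10 (up to 0.176 by edgeR) and Phyhd1 with 4 (up to 0.0944), the last 2 without E14 of experiment 2 at day 4.

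Day 10, which the rule did not use, lay nearer to late than to day 4 for 134 of the 213 peaking genes (62.9%) and for 139 of the 183 dipping genes (76.0%). The median level of peaking genes was lower at day 10 than at day 4 by 0.56 on the log2(CPM + 1) scale, and that of dipping genes higher by 0.84. The median difference of peaking genes was 2.30 from day 0 and 0.91 from late, but these values chose the genes, and the comparison with day 0 had fewer residual degrees of freedom (5 against 9).

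**Figure D4:**
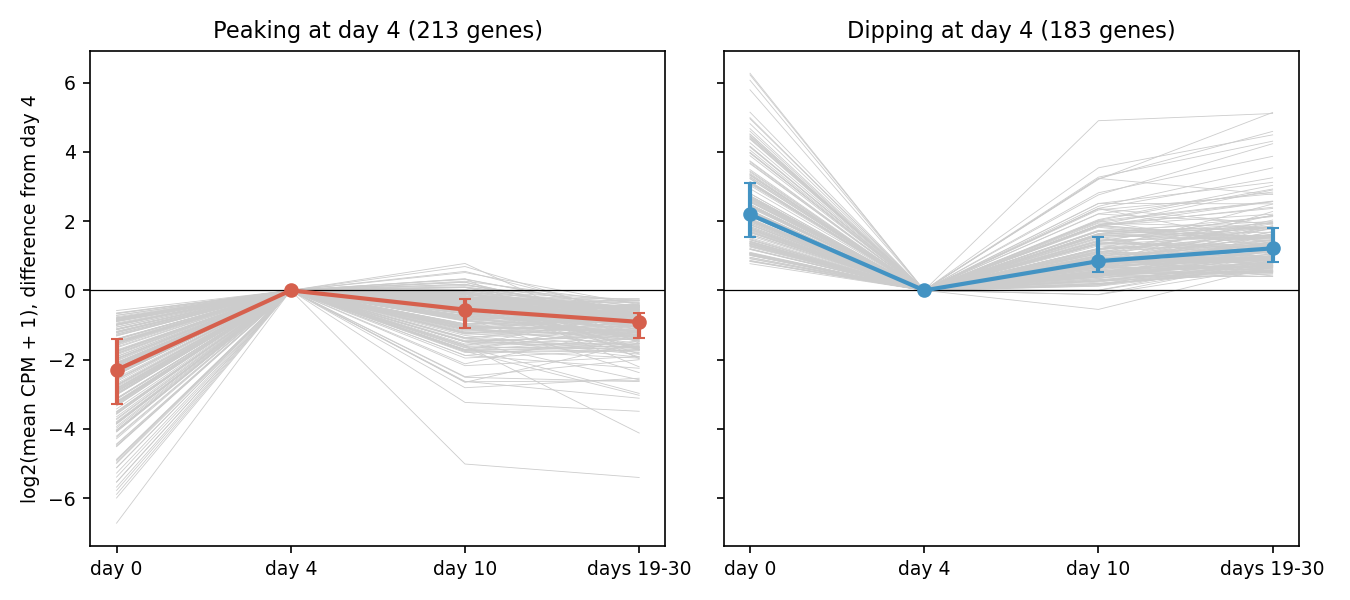
Mean level at each stage as log2(mean CPM + 1) minus the value at day 4, for the 213 genes peaking and the 183 dipping at day 4; grey lines are single genes, coloured points the median over genes, and bars the quartiles. Day 0, day 4 and days 19 to 30 chose the genes, day 10 did not, and its medians lie between those of day 4 and late.

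Peaking genes were ranked by the smaller of the 2 differences. Vat1l had 10.1, 8.76, 14.8 and 33.2 CPM at day 4, 0 to 0.748 CPM at day 0 and 1.18, 1.96 and 2.77 CPM late. Syt4, a synaptotagmin of vesicle release, had 5.26, 9.57, 6.35 and 48.5 CPM and at most 2.6 CPM late. Ina, a neuronal intermediate filament, had 56.9, 58.2, 26.9 and 19.3 CPM and 1.69, 7.76 and 15 CPM late. These were separated from both ends in every library.

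Grm6, a glutamate receptor, had 41, 9.94, 10.8 and 0.99 CPM at day 4, and Sned1, a matrix protein, 79.2, 94.9, 18.4 and 7.92 CPM; both overlapped with late and lost their calls in 4 and 5 alternatives. Without E14 of experiment 2 at day 4 their edgeR adjusted p was 0.0501 and 0.0842, and without PGK of that experiment it was 0.0502 for Sned1. Slc22a3, an organic cation transporter, was high in E14 (17 and 26.2 CPM) and low in PGK (0.771 and 1 CPM) at day 4. Alox5, a lipoxygenase, had 28.8, 12.1, 37.3 and 8.41 CPM and 0.92, 3.19 and 8.57 CPM late, so E14 of experiment 3 lay within the late range. In E14 of experiment 2 Alox5 was higher at day 10 (58.8 CPM), which the rule did not use, than at day 4.

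Dipping genes were ranked in the same way. Capn6 (chrX:143802231-143827414, minus strand), a calpain family member, had 0.912, 0.663, 0.228 and 2.47 CPM at day 4, 8.8 to 50.6 CPM at day 0 and 34.3, 72.4 and 89.7 CPM late. Slit2, a guidance ligand, had 2.31, 1.84, 5.07 and 2.47 CPM, with 50.7 to 130 CPM at day 0 and 54.9, 87.5 and 175 CPM late. Ypel2, of a small zinc-binding family, had 1.96, 1.33, 1.51 and 0.495 CPM, with 42.9 to 101 and 15 to 106 CPM at the 2 ends. For these 3 no library of either end lay in the day 4 range.

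Fgf10, a growth factor, had 0.14, 0.0736, 2.1 and 0 CPM at day 4 and 22, 33.1 and 49.4 CPM late (log2 -5.38, and -8.32 without PGK of experiment 3). Cxcr7 (now Ackr3), a chemokine receptor, had 1.12, 0.147, 1.23 and 0 CPM and 8.06, 12.2 and 23.4 CPM late, and Eya1, a transcriptional coactivator, at most 1.96 CPM and 6.39, 12 and 23.6 CPM late. Exph5, Ttc25 and Itgb3 dipped as well, Itgb3 with overlap at late. Zeb1, a repressor of E-cadherin, dipped from 23 to 60.4 CPM at day 0 to 2.88, 1.33, 2.37 and 4.95 CPM, with 10.2, 19.4 and 37.6 CPM late.

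The 2 lines changed in the same direction for most genes. The change from day 4 to late had a Pearson r of 0.698 between PGK and E14 over 14552 genes, which are not independent replicates. Within PGK 1812 of 15110 genes were called (12.0%) and within E14 2250 (14.9%). Of the genes called in PGK that were also in the pooled test, 95.1% had the same sign in E14, and of those called in E14, 95.2% had the same sign in PGK, beside 74.1% of all genes; 974 genes were called in both (56.0% of the PGK genes and 43.7% of the E14 genes), 3 of them with opposite signs.

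The difference between the lines was itself tested as a line by stage term. It was called for 6 of 15110 genes (0.0397%), with 1180 at an unadjusted p under 0.05, while DESeq2 called 171 and limma 31. The count was 110 without E14, 33 without PGK of experiment 2 and 27 without PGK of experiment 3 at day 4, and 0 to 7 without any 1 late library. All 6 had a lower day 4 level relative to late in E14 than in PGK. Peg10 (chr6:4747306-4760517, plus strand), an imprinted gene derived from a retrotransposon, was at 604 and 514 CPM in PGK and at 31.1 and 52 CPM in E14 at day 4, and at 1050 to 1897 and 542 to 928 CPM late (difference of changes -2.82, SE 0.39, edgeR adjusted p = 0.0283).

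Frem2, a basement membrane protein, had 110 and 169 CPM in PGK and 11 and 13.4 CPM in E14 at day 4, against 104 to 138 and 42.6 to 62.1 CPM late. Grhl3, of surface ectoderm, had 14.2 and 9.45 CPM in PGK and 0.589 and 0.495 CPM in E14, with 10.2 to 22.9 CPM late over both lines. Vcan (versican) had 174 and 380 CPM in PGK and 44.3 and 26.7 CPM in E14, with 216 to 406 CPM late. Wnt5a, named after its values were seen, had a difference of -5.66 (adjusted p = 0.0340). The 2 lines were separate at day 4 for all 4 of these genes named with levels. None was called when only 1 late stage was used or when the late libraries of a culture were summed. Xist, the RNA that coats the inactive X chromosome, stood at 1323 and 1946 CPM in PGK and at 17.5 and 10.4 CPM in E14 at day 4, and at 412 to 1339 and 1.38 to 2.41 CPM late.

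**Figure D5:**
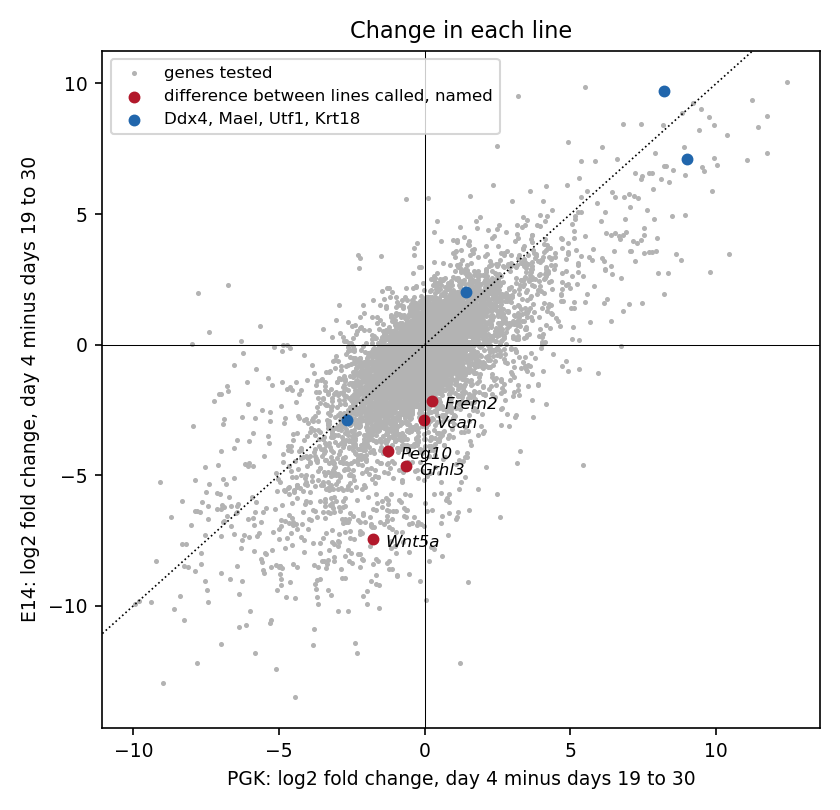
Log2 fold change from days 19 to 30 to day 4 in PGK (horizontal) and E14 (vertical), 1 point per gene tested; red points are 5 of the 6 genes whose change differed between the lines, blue points Ddx4, Mael, Utf1 and Krt18, and the dotted line marks equal change. The 5 red points lie below it, and the blue points near it (r = 0.698 over all genes).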

How the data were processed

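Raw counts per gene were deposited by the authors in 1 table for each line (23361 genes), and joined on the gene name. Per the submitters' processing notes, CASAVA 1.8.2, Cuffdiff and DESeq2 were used with GRCm38 (mm10); which aligner, counter and annotation made the counts is not given in the sources used here. The authors also deposited variance-stabilised log2 values, transformed separately in each line, and these served for a limma alternative only; the tables of normalised values were not used. CPM was computed as counts over the library total, times 1000000.

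Tests used edgeR 4.0.16 (R 4.3.3): TMM factors, filterByExpr with a minimum count of 10, glmQLFit with robust estimation, glmQLFTest with line as a block, and Benjamini-Hochberg adjustment over all genes tested (threshold 0.05). Residual degrees of freedom were 9 for day 4 against late and 5 for day 4 against day 0. Alternatives used DESeq2 1.42.0, limma 3.58.1, other size factors, no filter, the culture as a block, a library code term and fewer libraries. On simulated counts for day 4 against late, the test recovered 51 of the 100 genes given a 2-fold change and 73 of the 100 given a 4-fold one, with 6 false calls among 14320 genes.

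The members, the 25 gene lists and the rule for named genes were chosen with earlier results of these data known. Named genes were the 4 markers, 8 landmarks, up to 3 called members of each list with the smallest adjusted p, the 10 largest changes in each direction, 10 peaking and 10 dipping genes, and 5 line differences; 83 of these 115 genes are described, some are not reported here, and other list members were named after their values were seen. A gene at 0 in a group was given a bound from 3 counts over the group, which covers counting error only. No label says which samples beyond the 4 cultures are biologically separate, so p-values measure the spread between these libraries. The labels give same-numbered samples of a line to 1 experiment; the correlation of their deviations from line means was -0.04 to 0.128 between day 4 and late.

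Gene coordinates are from GENCODE M21 (GRCm38), and upstream windows from a RefSeq table (GRCm38.p6), in which 25 of 29 tested germ line genes had an entry.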

Additional observations from a re-analysis of the deposited data

Results flagged for a closer look

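For each gene named above, the day 4 libraries and the late libraries were searched for 1 that stood far from the others by Dixon's criterion. This marked 40 of 262 groups. The usual rate of about 1 in 20 assumes normally distributed values and was not calibrated on these data. The groups mixed 2 lines, and for some low genes only 1 library held any count, which is marked by construction. No excess over chance is read from the 40. The groups share libraries, so the marks are not independent. Values are CPM.

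E14 of experiment 3 at day 19 stood apart for 14 genes. It was the highest late library for 12 of them. These included the endoderm genes Sox17 (199.8) and Foxa1 (86.3), the secreted antagonists Sfrp1 (915) and Dkk1 (216), the co-receptor Cfc1 (120), the growth factor Igf2 (2465, the next highest late value being 801) and the homeobox gene Otx2 (536). The others were Phyhd1 (18.9), Tph1 (61.1), Cxcr7 (23.4), Ttc25 (14.8) and Ooep (0.0511, with 0 in the rest). The same library was the lowest for Hells (217) and Tet1 (103), both of the DNA methylation list.

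PGK of experiment 2 was the highest day 4 library for Dnmt3l (149), Sox2 (122), Ooep (37.7), Hormad1 (30.5) and Slc25a31 (12.1), and the only one with a count of Hesx1 (0.0701). PGK of experiment 3 was the highest day 4 library for the streak genes T (474) and Lhx1 (37.0) and for Fgf10 (2.10). E14 of experiment 3, the shallowest library, was the highest at day 4 for Syt4 (48.5), Igf2 (33.7) and Shh (0.495).

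Among the other late libraries, PGK of experiment 2 at day 23 was the highest for Isg15 (32.7), Dppa4 (7.54), Zfp42 (4.22) and Mael (0.256), and at day 29 for Psma8 (0.0838). PGK of experiment 3 at day 21 was the highest for Cdh2 (221), Slc25a31 and Zscan4c (0.0400 each, 1 count) and the lowest for Capn6 (34.3), and at day 29 it was the highest for Dnmt3l (7.50). E14 of experiment 2 was the highest for Slc22a3 at day 21 (1.89) and for Dazl at day 27 (0.433). E14 of experiment 3 at day 30 was the highest for Slit2 (175) and Tdrkh (72.1).

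The change from late to day 4 differed between the lines, by edgeR's line by stage term, for 6 genes, of which 5 are given here. As E14 minus PGK on the log2 scale, the difference was -5.66 for Wnt5a, -4.03 for Grhl3, -2.84 for Vcan, -2.82 for Peg10 and -2.40 for Frem2.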

How the results depend on the processing

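Of the 117 genes named in the text and called against late, none changed sign in any alternative in which it was tested, 81 kept their call in every one and 36 lost it in at least 1, most often with the library code term (29 genes), without the coded libraries (27) or with days 27 to 30 as the late group (26). The count of 4106 genes became 2410 with the code term, 2400 without the coded libraries, 2306 with days 19 to 23 and 1422 with days 27 to 30 alone, and 2129 at a threshold of 0.01; leaving out 1 library gave 2836 to 5068. The 213 peaking genes became 430 with DESeq2, 102 without the coded libraries, 141 and 72 with the earlier and later late stage alone, 52 at the threshold of 0.01, and 83 to 264 with 1 library left out, lowest without E14 of day 4, experiment 2. The 183 dipping genes became 320 with DESeq2, 81 without the coded libraries, 103 with days 27 to 30 alone, 67 at 0.01, and 88 to 257 with 1 library left out. The 6 line differences became 171 with DESeq2, 31 with limma, 34 with the code term, 51 without the coded libraries, 0 with the late libraries of a culture summed, 0 with either late stage alone, 0 at 0.01, and 0 to 110 with 1 library left out. The cause of these shifts was not tested; fewer late libraries and a stricter threshold leave less to call by construction.

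With the culture (line by experiment) as a replicate block, in which the labels pair the samples, 3862 genes were called. In that fit 203 peaked, 168 dipped and 4 differed between lines, and of the named genes Grhl3 and Uchl1 lost their calls. Genes that were not called changed sign in 4 cases. Sox2 went to -0.17 with the code term, -0.11 without the coded libraries and -0.31 to 0.62 with 1 library left out, and T to 0.066 with the code term and 0.22 without the coded libraries. Epcam went to -0.037 with days 19 to 23 alone and -0.050 to 0.079 with 1 library left out. Dcn went to 0.041 with limma, 0.0082 with the replicate block and -0.92 to 0.35 with 1 library left out. Depth limits the low genes: 3 counts are 1.48 CPM in the shallowest day 4 library and 0.111 to 0.192 CPM in the late ones.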
